A study of Homo sapiens with 8 samples.

Results

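CUTLL1 is a cell line grown from a human T-cell acute lymphoblastic leukemia, with an activated NOTCH1. The comparison described here took CUTLL1 cells that all received dexamethasone at 1 microM and asked what changed when PF-03084014 was present as well. It used 4 of the 8 arrays of the series, 2 from cells given 1 microM dexamethasone alone and 2 from cells given 1 microM dexamethasone together with 1 microM PF-03084014 (the combination). Treatment lasted 48 h, and 2 arrays of DMSO-treated cells and 2 of cells given 1 microM PF-03084014 alone served to set the same inhibitor's response without the glucocorticoid beside it. All groups were 1 cell line in culture, and the labels speak of replicas without saying whether they were separate cultures, so the p-values cover no more than the spread among these arrays, which may be technical. All 9 measured T-lineage markers, such as CD2 and GATA3, had a mean intensity of 100 or more, as had 10793 of 19775 genes. So had 2 of 7 B-lineage, 2 of 7 myeloid, 3 of 7 erythroid and megakaryocyte and 3 of 10 epithelial and stromal markers.

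NOTCH1 is a membrane receptor that is cut by ADAM10 and then by gamma-secretase, after which its intracellular part enters the nucleus and binds the DNA-binding protein RBPJ to switch on genes such as the HES and HEY repressors. PF-03084014 inhibits gamma-secretase and so keeps the receptor at the membrane. Dexamethasone binds the glucocorticoid receptor, encoded by NR3C1, which enters the nucleus, raises genes such as TSC22D3 and FKBP5, and in lymphoid cells can start a death program in which BCL2L11 (the BH3-only protein BIM) takes part. HES1 is known as a repressor that can act on NR3C1 in T-cell leukemia, which is why NR3C1, BCL2L11 and HES1 mark the response studied here.

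The letters TGGGAA form the core of the sequence that RBPJ binds. The 150 bases before the annotated start of 4 genes that fell strongly in this comparison are shown with that core in capitals, since these genes carry the NOTCH readout of the arrays (RefSeq, GRCh38.p14, each 5′ to 3′ on the strand of its gene). HES1 lies at chr3:194135998-194136147 on the plus strand, and the minus-strand windows are chr1:1000098-1000247 for HES4, chr1:2530264-2530413 for HES5 and chr9:137302272-137302421 for NRARP.
HES1: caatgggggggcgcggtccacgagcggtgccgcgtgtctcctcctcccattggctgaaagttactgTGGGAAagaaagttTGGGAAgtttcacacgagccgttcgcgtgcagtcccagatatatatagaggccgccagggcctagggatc
HES4: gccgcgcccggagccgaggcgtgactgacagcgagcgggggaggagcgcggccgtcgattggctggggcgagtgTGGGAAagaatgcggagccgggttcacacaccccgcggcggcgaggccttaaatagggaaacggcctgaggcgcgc
HES5: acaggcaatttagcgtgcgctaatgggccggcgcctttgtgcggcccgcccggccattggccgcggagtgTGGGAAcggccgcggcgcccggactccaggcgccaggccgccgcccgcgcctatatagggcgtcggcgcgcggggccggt
NRARP: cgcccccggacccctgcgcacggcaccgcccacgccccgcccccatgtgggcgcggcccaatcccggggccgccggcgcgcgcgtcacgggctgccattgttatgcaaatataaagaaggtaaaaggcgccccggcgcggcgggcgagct

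The core stood 2 times in the HES1 window, at -84 and -70 from the start, and 1 time each at -76 in HES4 and -80 in HES5, while the NRARP window held none. In each HES gene a copy was preceded by G, giving GTGGGAA, a longer form that contains the core. Searched on both strands in the 250 bases before the start, TGGGAA was found in 20.8% of 35116 RefSeq promoters, in 20.1% of those of genes tested, in 17.0% of those of genes that rose and in 19.9% of those of genes that fell. The longer GTGGGAA stood in 5.43% of all promoters, in 4.48% of those of genes that rose and in 5.80% of those of genes that fell. These matches describe letters in a window and not binding.

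Each array gave 54675 probe-set intensities, and 19775 genes were tested. Median intensity lay between 61.8 and 63.9 on 7 arrays and was 76.3 on the second combination array, where 43.9% of probe sets exceeded 100, against 40.4% to 41.0% elsewhere. The replicate arrays of the combination differed from each other with an SD of 0.55 on the log2 scale over genes, against 0.33 to 0.36 in the other groups, and 1811 genes lay at least 2-fold apart between them, against 427 between the dexamethasone arrays. Over 8982 genes of mean intensity under 100, the second combination array lay at a median of 0.26 log2 above the dexamethasone mean and the first at 0. Over the 10793 brighter genes the medians were -0.026 and -0.0066, and the SDs were 0.547 and 0.369, so the second array spread further there too. The 3′ to 5′ signal ratio of actin, a measure of RNA integrity, was 1.84 and 2.27 for the combination and 2.07 and 2.21 for dexamethasone, and the spiked bacterial control bioB read 563 and 700 against 872 and 744. The part of these array differences in the results was not tested.

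**Figure D1:**
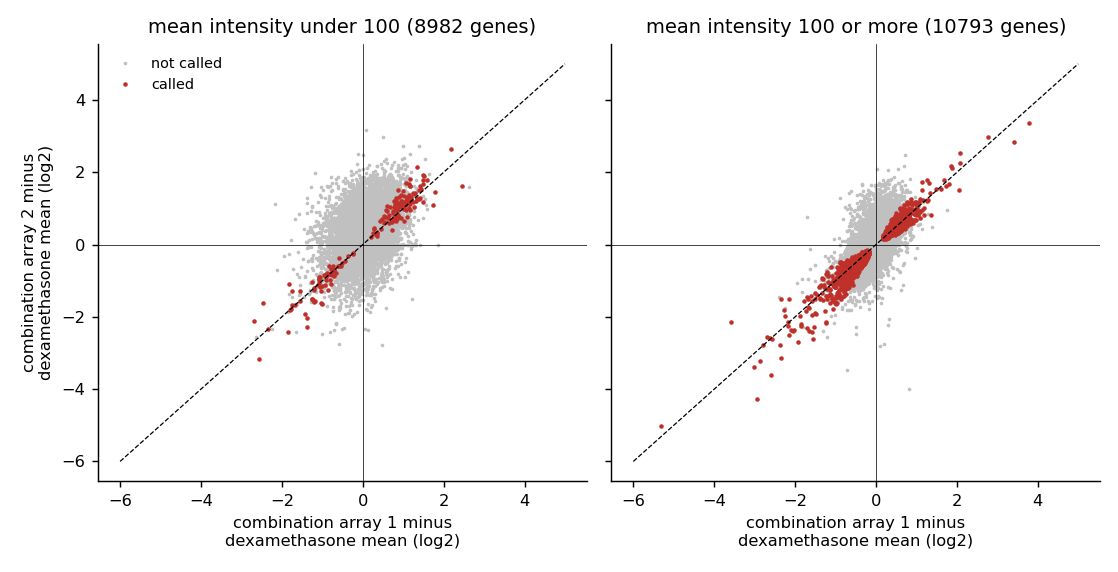
Each combination array against the mean of the dexamethasone arrays, in log2 units, for genes of mean intensity under 100 (left, 8982 genes) and of 100 or more (right, 10793 genes), with the dashed line marking equal values. Called genes, in red, make up 1.94% of the dim and 11.7% of the brighter genes. They lie near the line, which the call itself favors, as it needs a small spread between arrays. Genes spread further along the axis of array 2 in both panels. The SD was 0.688 against 0.453 for dim genes and 0.547 against 0.369 for brighter genes.

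Adding PF-03084014 to dexamethasone changed many genes. Against dexamethasone alone, 1435 of 19775 genes (7.26%) passed a limma adjusted p of 0.05, of which 646 (3.27% of genes tested) rose and 789 (3.99%) fell. Of these, 97 rose and 153 fell at least 2-fold, and 8 rose and 31 fell at least 4-fold, so the largest effects were mostly losses. Most changes were small, with a median of 0.53 log2 units among genes that rose and -0.59 among genes that fell. Brighter genes were called more often: of 10793 genes of mean intensity 100 or more, 538 rose and 723 fell (11.7% called). The shares over all genes given with the lists below are thus low for lists of bright genes. The standard error pools all 8 arrays, and with the wider spread of the combination arrays it tends to be too small for this comparison. With array weights 208 genes were called, all among the 1435, and with only the 4 arrays compared 0 were called, although 3503 had an unadjusted limma p under 0.05 and the lowest adjusted p was 0.114.

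The number of calls also depended on single arrays through the error estimate. It was 0 without dexamethasone array 1, 23 without dexamethasone array 2, 351 or 381 without a PF-03084014 array and 676 or 680 without a DMSO array. It rose to 5818 without combination array 1 and was 1034 without combination array 2, of which 724 were among the 1435. All 1435 genes kept their sign in each of these fits. That was fixed in advance, as none of the 1435 had overlapping combination and dexamethasone arrays. Of the 94 called genes among those named by rule, 0 stayed called without dexamethasone array 1, and DTX1, HES5, NRARP, PTCRA and WNK2 stayed called without dexamethasone array 2. No value of those 94 genes moved by more than 1.5 times when any 1 array was left out. The call itself limits such moves, as it needs a small spread between arrays, so this does not measure stability.

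**Figure D2:**
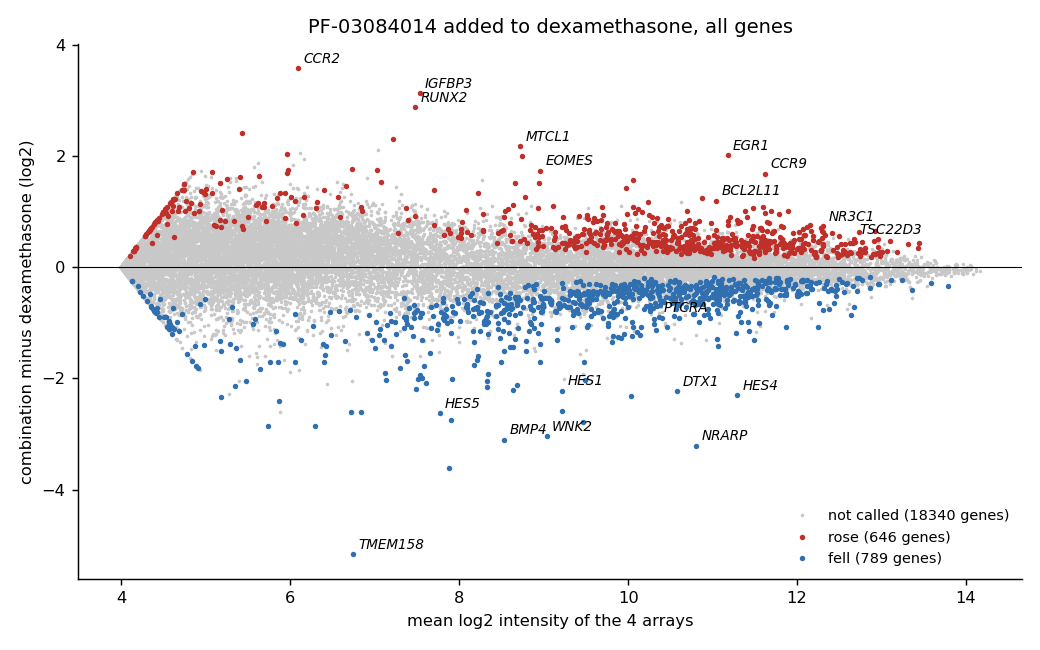
Difference between the combination and dexamethasone (log2, vertical) against the mean log2 intensity of the 4 arrays (horizontal) for 19775 genes, with 646 that rose in red and 789 that fell in blue. NOTCH targets such as NRARP and DTX1 stand far below the cloud at high intensity, and the edges on the left come from the intensity floor of 16.

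The NOTCH targets with the best known link to the pathway fell. HES1, a repressor and direct target of NOTCH1, read 1346 and 1236 with dexamethasone and 309 and 246 with the combination, against 1242 and 1296 with DMSO. The HES1 groups did not overlap, which held for 51.3% of all genes while 7.26% were called. Dexamethasone had left HES1 at the DMSO level, and the difference of the combination was -2.23 ± 0.15 log2 units (estimate ± SE, limma adjusted p = 0.00779). A second HES1 probe set stood at -2.36, and the third was at the floor on all arrays. NRARP, which encodes a feedback inhibitor of the NOTCH complex, went from 5621 and 5262 to 672 and 515, a 9.25-fold decrease (-3.21 ± 0.14, adjusted p = 0.00473). DTX1, a ubiquitin ligase gene of the pathway, went from 3379 and 3260 to 767 and 651. Its difference of -2.23 ± 0.083 was close to that without dexamethasone, -2.18.

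HES4, HES5 and HEY1, further repressors of the HES and HEY families, fell as well. HES4 read 6008 and 5168 with dexamethasone and 1473 and 861 with the combination, a fall of 2.31 ± 0.25 in log2 that differed clearly between the combination arrays. HES5 read 574 and 512, then 83.6 and 92.1, and fell by 2.63 ± 0.13 (adjusted p = 0.00473). HEY1 read 257 and 263, then 43.7 and 42.2, and fell by 2.60 ± 0.15. In all 3 genes every combination array lay below every dexamethasone array, as 51.3% of all genes had no overlap in either direction and 3.99% were called lower. HEYL was not called: it read 104 and 110 with dexamethasone and 113 and 131 with the combination (0.19, adjusted p = 0.475). HES6 and HEY2, with intensities from 20.6 to 86.4 on these 4 arrays, were not called either.

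Targets outside the repressor families were mixed. PTCRA, the gene of the pre-TCR alpha chain, read 1779 and 1814 with dexamethasone and 981 and 946 with the combination, a fall of 0.90 ± 0.040 (adjusted p = 0.00473). SHQ1, an assembly factor of small nucleolar particles, fell by 1.31 ± 0.085. MYC, the growth regulator that NOTCH1 drives in these leukemias, read 4916 and 4628, then 4145 and 3572. The MYC groups did not overlap, as in 51.3% of all genes, and the difference of -0.31 ± 0.10 was not called (adjusted p = 0.135). The call was made only without combination array 1 (-0.42, adjusted p = 0.0482) and with the replicate number as a block (adjusted p = 0.0437). NOTCH3, itself a target, read 384 and 358, then 216 and 142, at -1.08 ± 0.26 (adjusted p = 0.0761), and without combination array 1 it was called at -1.38 (adjusted p = 0.0249).

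Of 28 measured genes on a list of 30 NOTCH targets, 8 fell, 1 rose and 19 were not called, with a median of -0.25 log2 units against 0.040 over all genes, where 3.99% fell. The 8 that fell were NRARP, HES5, HEY1, HES4, DTX1, HES1, SHQ1 and PTCRA. With array weights, without combination array 2, and with arrays shifted to equal medians, 8 fell each time. Members that were not called included CCND3 (0.060), GFI1 (-0.014), MYB (0.22) and LZTFL1 (-0.23). IGF1R was divided by probe set: the brightest stood at -0.20 and was not called, the next at -0.68 (adjusted p = 0.0150 in the fit of all probe sets) and the third at -0.82 (not called). CCR7 stood at 0.39 (adjusted p = 0.0636) and HIVEP3 at 0.64 (adjusted p = 0.0578).

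**Figure D3:**
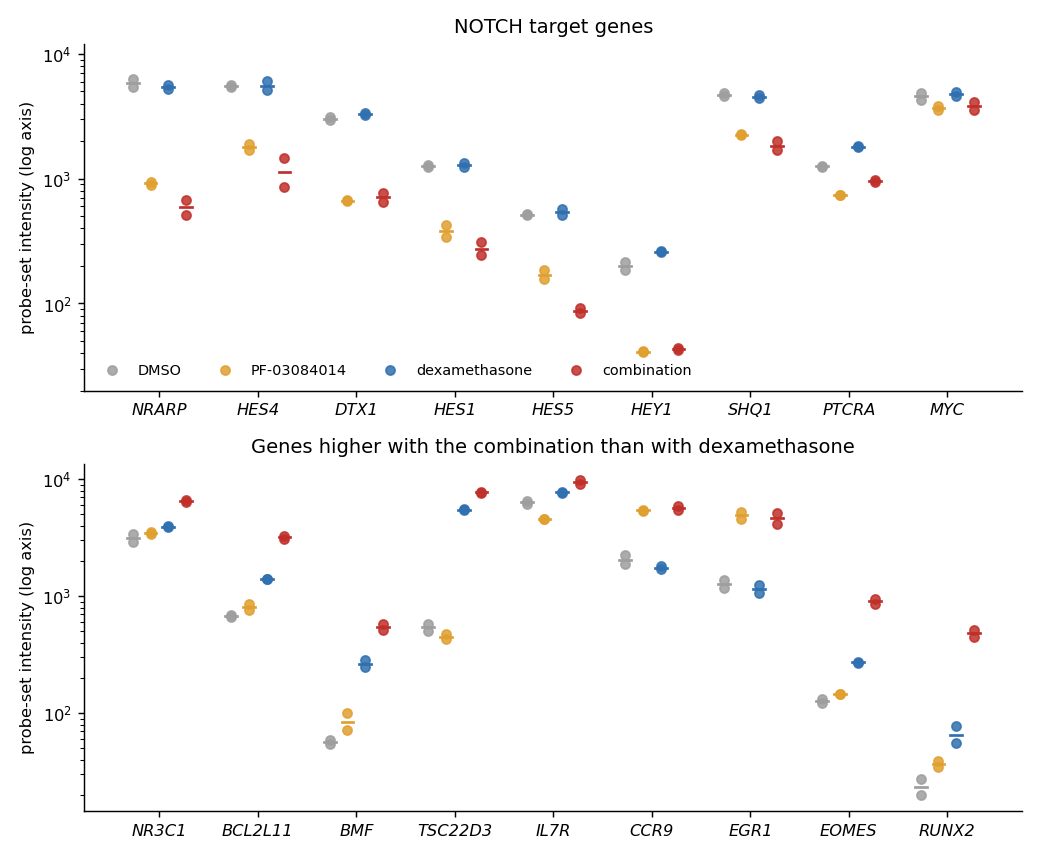
Probe-set intensity on every array (dots, log axis) for 9 NOTCH targets and 9 genes that were higher with the combination than with dexamethasone, in the order DMSO, PF-03084014, dexamethasone and combination, with lines at the mean of log2 values of each pair. HES1 falls from 1346 and 1236 with dexamethasone to 309 and 246 with the combination, and BCL2L11 climbs from 1395 and 1397 to 3115 and 3265.

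In the NOTCH machinery, some receptor and cleavage genes rose beside the falls of the feedback genes. NOTCH1 read 6744 and 6541 with dexamethasone and 9430 and 9490 with the combination (0.51 ± 0.061, adjusted p = 0.0179), and it stood at 0.18 and was not called with the mean of its probe sets. ADAM10, the sheddase that makes the first cut, rose by 0.47 ± 0.048. NCSTN, a gamma-secretase subunit, and MAML1, a coactivator of the complex, rose by 0.47 and 0.42. Together with the falls of NRARP and DTX1, this made 4 rises and 2 falls among 34 genes, where 3.27% of all genes rose and 3.99% fell. The list median was 0.034 and became -0.11 after a shift of arrays to equal medians, where 0 rose and 2 fell, the counts that array weights gave too.

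The glucocorticoid receptor gene was higher with the combination. NR3C1 read 3947 and 3906 with dexamethasone and 6631 and 6413 with the combination, while DMSO gave 2932 and 3384 and PF-03084014 alone 3430 and 3555. Both combination arrays lay above the other 6. The difference was 0.73 ± 0.072 log2 units, or 1.66-fold (adjusted p = 0.0135), and without combination array 2 it was 0.76 (adjusted p = 0.0387). With array weights the adjusted p was 0.0572, and after a shift of arrays to equal medians the value was 0.58 (adjusted p = 0.0943). All 5 NR3C1 probe sets lay between 0.70 and 0.85, and 3 of them passed in a fit of all probe sets. PF-03084014 without dexamethasone stood at 0.15 ± 0.072 (adjusted p = 0.492). The difference between both responses was 0.58 ± 0.10 and did not pass (interaction adjusted p = 0.315).

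Some coactivator genes of the receptor rose and a chaperone gene fell, the coactivator CREBBP with 0.40 (not called) for the mean of its probe sets. NCOA2 and CREBBP, which encode coactivators, rose by 0.79 ± 0.089 and 0.79 ± 0.092, and NCOA1 rose by 0.62. FKBP4, which encodes a co-chaperone of the receptor, went from 1891 and 1827 to 1082 and 908 (-0.91 ± 0.11). Its second probe set stood at -1.315 (limma adjusted p = 0.0301 in the fit of all probe sets). Without the less specific probe sets (names ending in _x_at or _s_at) FKBP4 stood at -0.043, on a probe set near the floor (mean intensity 20.4). FKBP5, the co-chaperone gene that glucocorticoids raise, read 9736 and 9957, then 12873 and 12018, with DMSO at 5932 and 6398. Its rise of 0.34 ± 0.056 (adjusted p = 0.0327) came on top of the dexamethasone level, and a second probe set stood at 0.74. Of 21 measured genes of the receptor and its chaperones, 5 rose, 1 fell and 15 were not called (median -0.034), where 3.27% of all genes rose and 3.99% fell. With array weights 0 were called.

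Genes that dexamethasone is known to induce tended to lie higher with the combination. TSC22D3, which encodes the glucocorticoid-induced leucine zipper protein, read 506 and 583 with DMSO, 475 and 430 with PF-03084014, 5526 and 5478 with dexamethasone, and 7836 and 7697 with the combination. PF-03084014 alone thus left it below DMSO (-0.27, not called), whereas added to dexamethasone it came with a rise of 0.50 ± 0.082 (adjusted p = 0.0322). The difference between these responses, 0.76 ± 0.12, did not pass (interaction adjusted p = 0.315), and the rise was not called without combination array 2 (0.51, adjusted p = 0.0866). ITGA6, an integrin gene, read 157 and 216 with DMSO, 788 and 762 with dexamethasone, and 1498 and 1709 with the combination, a rise of 1.05 ± 0.17.

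Of 35 glucocorticoid receptor targets measured, 12 rose, 2 fell and 21 were not called, with a median of 0.30, where 3.27% of all genes rose. The other members that rose were BCL2L11, SGK1 (1.00), ISG20 (0.58), SMAP2 (0.50), SLA (0.44), KLF13 (0.42), BTG1 (0.41), IL7R and DUSP1 (0.28). MAP3K8, a kinase gene, fell from 127 and 142 to 20.8 and 30.9, near the floor, so that its difference was -2.40 ± 0.25 and only -1.07 with a floor of 64. RGS1, a regulator of G protein signalling, fell by 1.38 ± 0.17. Both stood near the DMSO level with dexamethasone: MAP3K8 read 138 and 140 with DMSO. RGS1 read 820 and 750 with DMSO and 810 and 799 with dexamethasone. PF-03084014 alone gave -2.26 for MAP3K8 and -1.99 for RGS1. With array weights the counts were 2 and 2, after a shift of arrays to equal medians 1 and 1, and without combination array 2 they were 7 and 2. The list was also higher with PF-03084014 alone (median 0.21), where 2 rose and 3 fell and 0.824% of all genes were called. DDIT4 (-0.013), KLF4 (0.10) and ZBTB16 (0.42), further receptor targets, were not called.

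The death-promoting BCL2 family genes that rose were those for BIM and BMF. BCL2L11 read 667 and 692 with DMSO, 759 and 858 with PF-03084014, 1395 and 1397 with dexamethasone, and 3115 and 3265 with the combination. Every combination array stood above every other array, and the step from dexamethasone was 1.19 ± 0.068, or 2.28-fold (adjusted p = 0.00587). It was called at 1.16 without combination array 2 (adjusted p = 0.0211) and with array weights (adjusted p = 0.0308). All 7 BCL2L11 probe sets were above 0, from 0.46 to 1.29, and 3 passed in the fit of all probe sets. PF-03084014 alone gave 0.25 ± 0.068 (adjusted p = 0.209), and the interaction of 0.94 ± 0.096 shared the lowest adjusted p of any gene, 0.302, which does not pass.

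BMF, another BH3-only death gene, read 59.0 and 54.4 with DMSO, 71.5 and 100 with PF-03084014, 247 and 284 with dexamethasone, and 579 and 518 with the combination (1.05 ± 0.20, adjusted p = 0.0449). That call ended without combination array 2 (1.13, adjusted p = 0.0934) and without combination array 1 (0.97, adjusted p = 0.0568). PMAIP1, which encodes NOXA, fell by 0.39 ± 0.061, and 9 of the 12 death genes measured were not called (list median -0.087). Among 6 survival genes, BCL2 (0.52 ± 0.092, adjusted p = 0.0373) and BCL2L1 (0.23 ± 0.032, adjusted p = 0.0231) rose and 0 fell (list median -0.0090). Over all genes 3.27% rose and 3.99% fell. With array weights 1 death gene rose and 0 survival genes were called, so these few calls do not describe either class. BCL2 stood at 0.24 and BCL2L1 at 0.060 with the mean of their probe sets, and neither was then called. MCL1 was not called (0.14 ± 0.079), although its second brightest probe set stood at 0.45 (adjusted p = 0.0124).

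IL7R was the only listed NOTCH target called higher with the combination, although 8 of the 28 measured lay above 0. This gene encodes the interleukin 7 receptor, a survival receptor of early T cells that NOTCH1 and the glucocorticoid receptor both can raise. It read 6562 and 6168 with DMSO, 4560 and 4588 with PF-03084014, 7686 and 7849 with dexamethasone, and 9183 and 9864 with the combination. PF-03084014 alone lowered it (-0.48 ± 0.051, adjusted p = 0.0338), and with dexamethasone present it rose by 0.29 ± 0.051 (adjusted p = 0.0369), making it the 1 gene called in opposite directions. The difference between the responses was 0.77 ± 0.073 and did not pass (interaction adjusted p = 0.302). In the fit of all probe sets, neither IL7R probe set was called. The rise ended without combination array 2 (0.24, adjusted p = 0.0692), and a second, dimmer IL7R probe set stood at -0.27. In the interleukin 7 receptor and JAK-STAT list, JAK1 (0.62 ± 0.041), BCL2 and IL7R rose among 18 genes and none fell (median 0.28), where 3.27% of all genes rose. It was 1 gene without combination array 2 or with array weights, and 0 after a shift of arrays to equal medians. JAK1 stood at 0.20 and was not called with the mean of its probe sets.

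Genes of immature T cells and of thymic homing were divided. CCR9, the receptor that draws cells to the thymus and gut, read 1695 and 1826 with dexamethasone and 5882 and 5428 with the combination, a rise of 1.68 ± 0.098 (adjusted p = 0.00587). RAG1 and RAG2, the recombinase genes, rose by 0.98 ± 0.16 and 0.64 ± 0.10, CD1C by 0.67 ± 0.090, CD2 by 0.71 ± 0.10 and GATA3 by 0.65 ± 0.050. CD27 fell by 1.13 ± 0.15, PTCRA by 0.90 and CD7 by 0.58 ± 0.11. That made 6 rises and 3 falls among 28 genes, where 3.27% of all genes rose and 3.99% fell. The median was 0.073 and became -0.080 after a shift of arrays to equal medians, with 1 rise and 1 fall, and array weights gave 2 and 1. RAG1 stood at 0.61 and was not called with the mean of its probe sets. The calls of RAG1, RAG2 and CD7 ended without combination array 2, at 0.78 (adjusted p = 0.0653), 0.52 (adjusted p = 0.0641) and -0.48 (adjusted p = 0.0972).

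CCR2, a chemokine receptor gene, rose from 24.3 and 14.3 to 273 and 202. Because 1 dexamethasone array was at the floor of 16, the fitted value of 3.58 ± 0.26 depends on that floor and was 1.88 with a floor of 64, below RUNX2 (2.78) and IGFBP3 (2.98) at that floor. CCR2 was not called with the mean of its probe sets (2.31, adjusted p = 0.0593). Among 28 chemokine receptor, integrin and homing genes, CCR2, CCR9 and ITGA6 rose and ITGA1 fell, from 319 and 413 to 97.9 and 92.1. ITGA1 stood at -0.79 and was not called with the mean of its probe sets. The counts of 3 and 1 compare with 3.27% and 3.99% of all genes.

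Several immediate early genes and feedback regulators of MAP kinase signalling rose. EGR1, a serum-responsive transcription factor, read 1254 and 1058 with dexamethasone and 4164 and 5196 with the combination (2.01 ± 0.16, adjusted p = 0.00883), and all 3 of its probe sets were called. TRIB1, a pseudokinase gene, read 58.6 and 56.7, then 238 and 163 (1.77 ± 0.21). FOS (1.08), SPRED2 (0.68), DUSP10 (0.65), IER2 (0.37), DUSP1 (0.28) and DUSP6 (0.26) rose as well, so 8 of 22 members rose and none fell (median 0.33), where 3.27% of all genes rose. The median was 0.30 with PF-03084014 alone, where 6 rose and 0.824% of all genes were called. Without combination array 2 the count was 5, and with array weights or a shift of arrays to equal medians it was 3. TRIB1 stood at 0.95 with the mean of its probe sets.

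Many genes of DNA replication fell. ORC1, a subunit of the origin recognition complex, read 847 and 917 with dexamethasone and 497 and 470 with the combination (-0.87 ± 0.065, adjusted p = 0.00842), against 930 and 996 with DMSO and 843 and 845 with PF-03084014. POLD1, the catalytic subunit of DNA polymerase delta, read 1292 and 1213, then 792 and 619 (-0.84 ± 0.12). Of 36 replication and G1/S genes measured, 21 fell, none rose and 35 lay below 0, with a median of -0.40 against 0.040 over all genes, where 3.99% fell. The falling members span origin licensing and firing (ORC1, CDC6, MCM2, MCM4, MCM5, MCM6, MCM10, CDC45, GINS1, GINS2 and GINS4), polymerases and primase (POLD1, POLE2 and PRIM1), clamp loading (RFC2, RFC3, RFC4 and RFC5), flap cutting and ligation (FEN1 and LIG1) and cyclin E1 (CCNE1).

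With PF-03084014 alone the median of those replication genes was -0.076 and 0 of 36 were called, where only 0.824% of all genes were called. The difference between the responses passed for no single member. Of the 36 genes, 20 fell without combination array 2, 10 with array weights, and 4 after a shift of arrays to equal medians, where the list median was -0.55. Genes of mitosis did not share the pattern: 0 of 36 were called with the combination, where 7.26% of all genes were. Their median was -0.055 and their range from -0.31 to 0.35, with CENPE at 0.35 ± 0.076 as the member of smallest p (limma adjusted p = 0.0571). CDK2 fell by 0.29 ± 0.033 and CDKN2D, which encodes the CDK inhibitor p19, rose by 0.42 ± 0.077. They were the only calls on a list of 17 G1 cyclins, CDKs and inhibitors. Cyclin E1 (CCNE1), which fell, was counted with the replication genes instead. Over all genes 3.27% rose and 3.99% fell. CDK2 stood at 0.063 with the mean of its probe sets.

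Many genes of glycolysis and of the synthesis of building blocks were lower too. ALDOC, an aldolase gene, read 1394 and 1463 with dexamethasone and 562 and 562 with the combination (-1.35 ± 0.082, adjusted p = 0.00619), and ENO2, an enolase gene, read 1606 and 1644, then 813 and 587 (-1.23 ± 0.20). In glycolysis 9 of 21 genes fell and none rose, where 3.99% of all genes fell, and the median was -0.41 against -0.082 with PF-03084014 alone. The others were PKM (-1.16), GPI (-0.77), PFKL (-0.57), PFKM (-0.51), TPI1 (-0.41), ENO1 (-0.35) and LDHA (-0.28), so the calls cover several steps of the pathway. ENO2 was not called without combination array 2 (-0.999, adjusted p = 0.0679), and the count was then 7. It was 3 with array weights and 2 after a shift of arrays to equal medians.

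In nucleotide and folate synthesis 10 of 26 genes fell and none rose (median -0.38, and -0.24 with PF-03084014 alone), where 3.99% of all genes fell. PAICS and PFAS, enzymes of purine synthesis, fell by 0.65 ± 0.060 and 0.53 ± 0.094, although PAICS stood at 0.95 (not called) on its remaining probe set when the less specific ones were left out. The count was 9 without combination array 2, where PFAS stood at -0.42 (adjusted p = 0.0779), 2 with array weights and 3 after a shift of arrays to equal medians. In cholesterol synthesis 6 of 18 fell (median -0.42), among them DHCR7 (-0.79 ± 0.099) and SQLE (-0.68 ± 0.093). That count was 5 without combination array 2, 0 with array weights and 2 after the shift to equal medians.

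Of 23 genes of amino acid and polyamine metabolism 6 fell and 1 rose (median -0.43), where 3.99% of all genes fell and 3.27% rose. With array weights 1 fell, and after a shift of arrays to equal medians 3 fell. CBS, which makes cystathionine, read 156 and 139, then 48.9 and 49.7 (-1.58 ± 0.21, and -0.67 and not called with the mean of its probe sets), PYCR1, a proline synthesis gene, fell by 0.80 ± 0.15, and the amino acid transporter gene SLC38A2 rose by 0.27 ± 0.038. In ribosome biogenesis 7 of 40 fell (median -0.25, and -0.26 with PF-03084014 alone), led by BYSL (-1.08 ± 0.093) and NLE1 (-0.98 ± 0.17), where 2 fell without combination array 2 and 1 with array weights or the shift to equal medians. Among aminoacyl-tRNA synthetases 4 of 17 fell, FARSB (-0.57 ± 0.061) the most, and 1 fell with array weights and 0 after the shift. Cytosolic ribosomal protein genes had no call among 21 and a median of -0.072, and 3 of 26 respiratory chain genes fell (median -0.16), of which array weights and the shift each left 0. All 40 biogenesis, 17 synthetase and 26 respiratory chain genes had a mean intensity of 100 or more, where 723 of 10793 genes fell.

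**Figure D4:**
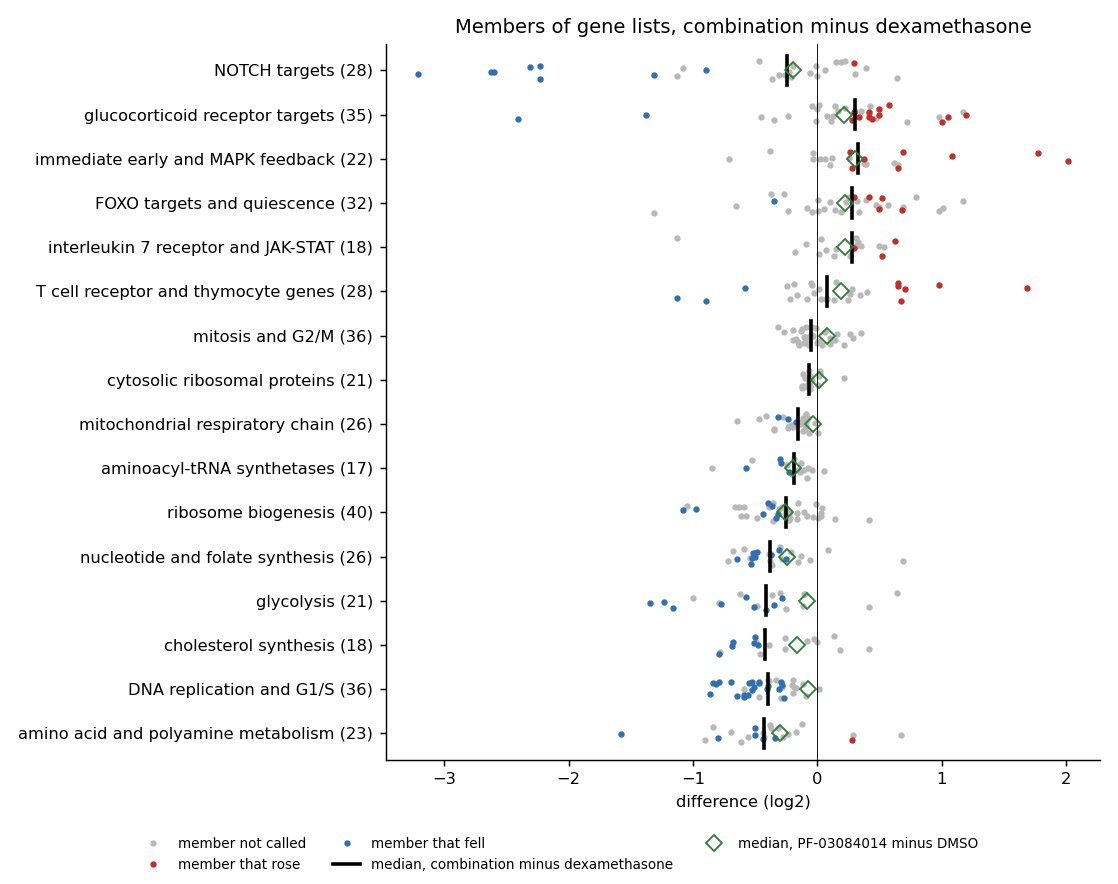
Log2 difference between the combination and dexamethasone for the members of 16 gene lists (dots, red for members that rose and blue for members that fell), with the list median as a black bar and the median for PF-03084014 against DMSO as a green diamond; the number of members measured is in parentheses. For DNA replication the bar stands at -0.40 and the diamond at -0.076, while for immediate early genes they stand at 0.33 and 0.30.

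FOXO targets, which mark quiescent or nutrient-poor cells, were higher in part: 5 of 32 rose and 1 fell (median 0.27), where 3.27% of all genes rose and 3.99% fell. KLF2, a quiescence factor of T cells, read 2325 and 2146, then 3594 and 3580 (0.68 ± 0.080), and CCNG2, a cyclin gene of resting cells, rose by 0.52 ± 0.063, while GADD45A fell by 0.35 ± 0.054. Without combination array 2, KLF2 (0.69, adjusted p = 0.0512) and CCNG2 (0.49, adjusted p = 0.0513) were not called, and 2 members rose. With array weights 1 rose, and KLF2 stood at 0.29 (not called) with the mean of its probe sets. After a shift of arrays to equal medians, 0 rose and the list median was 0.12. Interferon response genes lay at a median of -0.19 with 4 of 25 lower, IFIT1 (-1.67 ± 0.23) and USP18 (-1.15 ± 0.19) at the top, where 3.99% of all genes fell. IFIT1 and USP18 were dim, at -0.25 and -0.40 (not called) with a floor of 64, and the count was 0 without combination array 2 or with array weights.

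BMP signalling genes held large falls. BMP4, a ligand, read 1124 and 1052 with dexamethasone and 181 and 88.7 with the combination (-3.10 ± 0.33, adjusted p = 0.0149), and ID1, a target of BMP signals, read 666 and 580, then 122 and 70.0 (-2.75 ± 0.32). SMAD7 (-1.06) and SMAD1 (-0.39) also fell, whereas the receptor gene TGFBR2 (0.83 ± 0.11), the signal transducer SMAD3 (0.75 ± 0.11) and SKI (0.55) rose. That was 3 rises and 4 falls among 17 genes, where 3.27% of all genes rose and 3.99% fell, and array weights gave 1 and 1.

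Large falls were also measured in TMEM158, a membrane protein gene induced by RAS signalling, from 672 and 613 to 7.18 and 19.9, and in GPC1, a cell-surface proteoglycan gene, from 861 and 783 to 106 and 42.8 (-3.61 ± 0.47). As 1 combination array was under the floor, the TMEM158 value of -5.17 ± 0.28 depends on the floor and was -3.33 with a floor of 64. The kinase gene WNK2 fell from 1597 and 1427 to 207 and 161, with -1.50 for the mean of its probe sets, and MEST, an imprinted gene, fell from 271 and 293 to 45.7 and 47.3. ADM, the adrenomedullin gene, read 1793 and 1924 with dexamethasone and 267 and 272 with the combination. It also differed 2-fold and more between the DMSO arrays, which read 1067 and 2666. APCDD1, an inhibitor of WNT signalling, fell by 2.58, and ATP6AP1L by 2.33, with -1.45 for the mean of its probe sets. SEMA3C went from 133 and 156 to 24.3 and 13.9, under the floor on 1 array, and LINC02762 from 201 and 222 to 17.7 and 48.2. Their fitted values of -2.87 and -2.86 depend on the floor and were -1.17 and -1.72 with a floor of 64, and their second probe sets stood at 0.30 and -0.56 (not called).

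Large rises were also measured in RUNX2 and EOMES, both transcription factors. EOMES, a regulator of effector T cells, read 132 and 123 with DMSO, 145 and 146 with PF-03084014, 270 and 276 with dexamethasone, and 950 and 865 with the combination (1.73 ± 0.092, adjusted p = 0.00527). The response to PF-03084014 alone was 0.19, and the difference between the responses, 1.54 ± 0.13, had an interaction adjusted p of 0.302. RUNX2, a runt-domain factor, read 56.0 and 77.0, then 449 and 516 (2.87 ± 0.25), on its brightest probe set, but the 5 others were dim and were not called, from -0.70 to 0.68. IGFBP3, which binds insulin-like growth factors, read 52.5 and 74.7, then 670 and 447 (3.13 ± 0.52, adjusted p = 0.0324), and was not called without combination array 2 (3.42, adjusted p = 0.0740).

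Further rises were in MTCL1 (2.17 ± 0.11), a microtubule gene, and DOK2 (1.99 ± 0.27), an adaptor gene of tyrosine kinase signalling, both of which PF-03084014 alone also placed higher, at 2.33 and 1.55. SOX5 (1.74), NEGR1 (2.31), TEX55 (2.42), TNS4 (2.03), RHOQ-AS1 (1.74) and ADH6 (1.69) were dim genes, with no dexamethasone array above 92.6. TEX55 read 21.6 and 6.70 with dexamethasone, so its value was set by the floor of 16 and was 0.64 (not called) with a floor of 64. With that floor TNS4 (0.97) and RHOQ-AS1 (0.84) were not called, and ADH6 stood at 0.80. SOX5, TNS4, ADH6 and RHOQ-AS1 were not called with the mean of their probe sets, at 0.87, 0.71, 1.06 and 1.24. The calls of these genes other than TEX55 ended without combination array 2, where the adjusted p was 0.0511 for TNS4, 0.0709 for RHOQ-AS1, 0.0777 for NEGR1, 0.101 for SOX5 and 0.136 for ADH6.

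Most of the 1435 called genes had an estimate of the same sign without dexamethasone, but few were called there. PF-03084014 against DMSO gave 163 calls (0.824% of genes tested), 94 that rose and 69 that fell, in the same fit. Of these, 84 rose and 60 fell in both comparisons, which is 88.3% of the PF-03084014 calls and 10% of the 1435, and only IL7R was called in opposite directions. The 2 comparisons share no array but share 1 error estimate. Of the 1435 genes, 1320 had an estimate of the same sign without dexamethasone, with medians of 0.28 for those that rose and -0.23 for those that fell. Since these genes were selected for large differences in the combination, a smaller value elsewhere is partly set by that choice. In the other direction, 154 of the 163 genes called with PF-03084014 alone had the same sign with dexamethasone. Across all genes the differences correlated with r = 0.40, and across the 10793 brighter genes with r = 0.66, as a description.

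The test of the difference itself, the interaction of the compounds, called 0 of 19775 genes (0%) in limma, with a lowest adjusted p of 0.302 and 1798 genes at an unadjusted p under 0.05. It called 1018 without combination array 1, when array 2 alone stood for the combination, and 0 without combination array 2. The larger number of calls with dexamethasone present is therefore not a test that the inhibitor did more there. BCL2L11, EOMES, IL7R, RUNX2, NR3C1 and the replication genes had unequal estimates, while DTX1 (interaction -0.047), EGR1 (0.069), WNK2 (-0.038) and GATA3 (-0.023) had nearly equal ones.

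**Figure D5:**
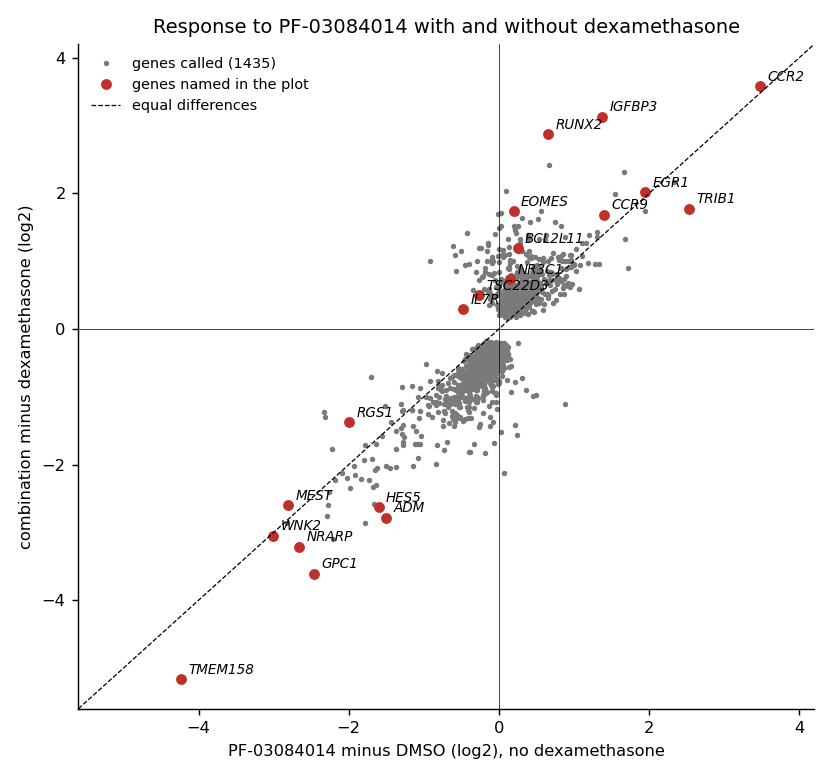
Log2 difference of the combination from dexamethasone (vertical) against that of PF-03084014 from DMSO (horizontal) for the 1435 called genes, with the dashed line marking equal differences and 19 genes named. EOMES, BCL2L11 and NR3C1 lie above the line near 0 on the horizontal axis, IL7R lies left of 0, and CCR2 and WNK2 lie close to the line; no gene passed the interaction test.

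Markers of other cell types gave few calls, where 7.26% of all genes and 1.94% of genes under a mean intensity of 100 were called. None of 7 B-lineage, 7 erythroid and megakaryocyte or 10 epithelial and stromal genes was called, and 1 of 7 myeloid genes, the integrin gene ITGAM, fell, from 218 and 208 to 112 and 102. The erythroid list lay at a median of 0.41 and the epithelial and stromal list at 0.38. These medians were 0.059 and 0.089 on combination array 1 and 0.71 and 0.47 on array 2. The summed intensity of the erythroid list was 803 and 786 with dexamethasone and 754 and 1100 with the combination, and 3 of its 7 members were under 100 on all 4 arrays. The part of this shift in the results above was not tested.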

How the data were processed

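For each array, 200 ng of CUTLL1 RNA was labelled with an Affymetrix 3′ kit, per the labels' protocols. The authors deposited 1 linear intensity per probe set and array. Its software and normalization were not given in the sources used here. Of 54675 probe sets, 11777 had no gene and 1801 several, and 41097 were used, with symbols updated through Entrez identifiers for 41043. Intensities under 16 were set to 16 and converted to log2, and the probe set of highest mean over 8 arrays stood for each of 19775 genes. limma 3.58.1 (R 4.3.3, statmod 1.5.0) fitted all 8 arrays with a mean per group and an intensity trend, with 4 residual degrees of freedom. Genes were called, and are said to rise or fall, at a two-sided Benjamini-Hochberg adjusted p under 0.05 over all genes. The median standard error was 0.18 log2 units. The number of arrays limits the precision.

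The fit was also run on simulated data, and the outcome is not reported here. A second fit took all single-gene probe sets. Genes named by rule were the 15 largest rises and falls among called genes with a higher-group mean of at least 100 and arrays that do not overlap, a preset group, and from each of 33 lists the 2 largest rises and falls, or the member of smallest p; all NOTCH targets could be named. Other members were named after their values were seen, where all called members of a list are given. The comparison, lists and preset genes were chosen with earlier results of these data known. The labels do not say that a replicate number marks a shared culture, and deviations of same-numbered arrays correlated with r from -0.011 to 0.080, so samples were not paired. The alternatives tried were other normalizations, floors, filters, probe-set choices and variance models, the replicate number as a replicate block, and leaving out arrays in turn.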

Additional observations from a re-analysis of the deposited data

How the results depend on the processing

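The combination against dexamethasone gave 1435 calls. It gave 311 with arrays shifted to a common median, 2364 with genes under a mean intensity of 100 left out, 787 with the mean of all probe sets, 949 without probe sets ending in _x_at or _s_at, 0 with only the 4 arrays compared, 914 without the intensity trend, 208 with array weights, and 923 with quantile normalization and combination array 2 left out. Leaving out each array gave from 0 to 5818. With the median shift, 20.6% of calls were higher against 45.0% before, and the median over all genes moved from 0.040 to -0.066. It was 33.3% with the mean of probe sets and 33.7% with array weights.

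PF-03084014 against DMSO gave 163 calls. It gave 32 with the median shift, 321 with a pseudocount of 16, 426 with the filter at 100, 93 with the mean of probe sets, 73 without the trend, 732 with array weights, 79 with the replicate block, 255 with quantile normalization and combination array 2 left out, and from 0 to 356 with each array left out. The interaction of the 2 compounds, with 0 calls, gave 11 with a floor of 32, 9 with a floor of 64, 1 without probe sets ending in _x_at or _s_at, and from 0 to 1018 with an array left out.

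The replicate block left 1296 calls for the combination against dexamethasone and 0 for the interaction, and 82 of the 94 named genes stayed called. Of those 94, the number still called was 89 with quantile normalization, 37 with the median shift, 36 with array weights and 59 without combination array 2. All 94 kept their sign under the normalizations, floors, variance models and arrays left out. For variance models and arrays left out this was fixed in advance, as called genes had no overlap between the arrays of the 2 groups. With the mean of probe sets CDK2 stood at 0.063. Without probe sets ending in _x_at or _s_at, ASAH1 stood at -0.25, HES1 at 0 (its remaining probe set was at the floor), KLF2 at -0.11 and PAICS at 0.95, none of them called. The remaining KLF2 probe set was near the floor, with a mean intensity of 17.0. The cause of these changes was not tested. Intensity over background limits genes near the floor of 16, of which 1.94% were called among those under 100.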

Other observations

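Protein-handling and stress genes were divided in the combination against dexamethasone. XBP1, a transcription factor of the unfolded protein response, read 2838 and 2698 with dexamethasone and 4460 and 4787 with the combination (0.74 ± 0.11), EDEM1, an endoplasmic reticulum degradation gene, rose by 0.60 ± 0.047, and SEL1L rose by 0.25. TRIB3, a target of the integrated stress response, fell by 0.54 ± 0.052, and VLDLR by 0.77 ± 0.14. TRIB3 stood at -0.051 (not called) with the mean of its probe sets, the second of which stood at 0.44. That was 3 rises and 2 falls among 25 genes (median -0.028), where 3.27% of all genes rose and 3.99% fell, and array weights gave 1 and 1. XBP1 stood at 0.064 with the mean of its probe sets and at 0.69 (adjusted p = 0.0816) without combination array 2, and was not called in either.

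LTB, which encodes lymphotoxin beta, rose by 1.01 ± 0.10 as the only call among 21 NF-kappaB targets (median 0.044, and -0.065 after a shift of arrays to equal medians), where 3.27% of all genes rose; it stood at 0.63 (not called) without probe sets ending in _x_at or _s_at. In autophagy and lysosome genes, ULK1 (0.67 ± 0.13), ASAH1 (0.35 ± 0.058) and LAMP1 (0.21) rose among 29 (median 0.011, and -0.14 after that shift), 3 genes where 3.27% of all genes rose, and 0 with array weights. ASAH1 stood at 0.11 (not called) with the mean of its probe sets. Of 7 metallothioneins none was called in limma (median -0.24, against -0.77 with PF-03084014 alone), with MT2A at -0.57 ± 0.27.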
